A study of Hapsidospora chrysogena with 9 samples.

Results

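In mycelium of Hapsidospora chrysogena, 119 genes had transcript levels that were graded down as the AcmybA genotype went from knockout through wild type to overexpression. H. chrysogena, also known as Acremonium chrysogenum, is the filamentous fungus from which the antibiotic cephalosporin C is produced, and AcmybA encodes a Myb transcription factor. The 119 genes are 1.62% of the 7360 genes with a mean of at least 10 FPKM over the libraries, out of 8899 genes in all. FPKM is the number of sequenced fragments scaled by transcript length and library depth. The members were chosen by the measured strain differences themselves. The first is the mean of log2(FPKM + 1) over the 3 times in the knockout minus that in wild type, which had to be at least 0.5. The second is the same mean in overexpression minus that in wild type, which had to be -0.5 or lower. The knockout also had to lie above wild type, and wild type above overexpression, at every time. Every statement on strain differences therefore describes what was selected and carries no test.

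The 9 libraries come from wild type, a strain carrying the AcmybA knockout and a strain that overexpresses AcmybA, each sampled as mycelium from LPE medium at 48, 72 and 96 h. Each strain and time has 1 library. The labels do not give the parent of the mutants, the promoter that drives overexpression, the number of transformants or the number of cultures. The study's title concerns repression of conidiation and of cephalosporin production by AcmybA. Genes carry protein identifiers without names, and the identifier of AcmybA is not stated among these sources. The strain labels were therefore not checked against its transcript, and "graded" refers to the order of the genotypes, not to a measured amount of AcmybA.

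Myb proteins bind DNA through repeats of a conserved helical domain, and in filamentous fungi several of them act in the switch from hyphal growth to asexual spores. Cephalosporin C is a secondary metabolite, a product not needed for growth, and fungi commonly make such compounds late in a culture, when growth slows. Since the 119 genes have no annotation here, none can be placed in either process, and they are described by level, strain order and time course.

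Summed FPKM ran from 852915 to 1124539 per library. Depth is not stated, and it was estimated relative to wild type at 96 h from the steps between low values. It came to between 0.829 and 1 in the wild-type libraries and the knockout at 72 and 96 h, and to between 1.77 and 2.39 in the 3 overexpression libraries and the knockout at 48 h. By these estimates deeper libraries coincide with overexpression and with the knockout at 48 h, and their part in the results was not tested. The next-best estimates were 3.54, 1.2 and 1.11 for overexpression at 48, 72 and 96 h. They were 1.2 for the knockout and 1.86 for wild type at 48 h. For wild type at 72 h and the knockout at 72 and 96 h they lay between 0.415 and 0.475. None of the 119 genes was listed at 0 in any library. Below 1 FPKM there were 6 of them in overexpression at 48 h, 1 in overexpression at 72 h and 1 in wild type at 48 h.

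**Figure D1:**
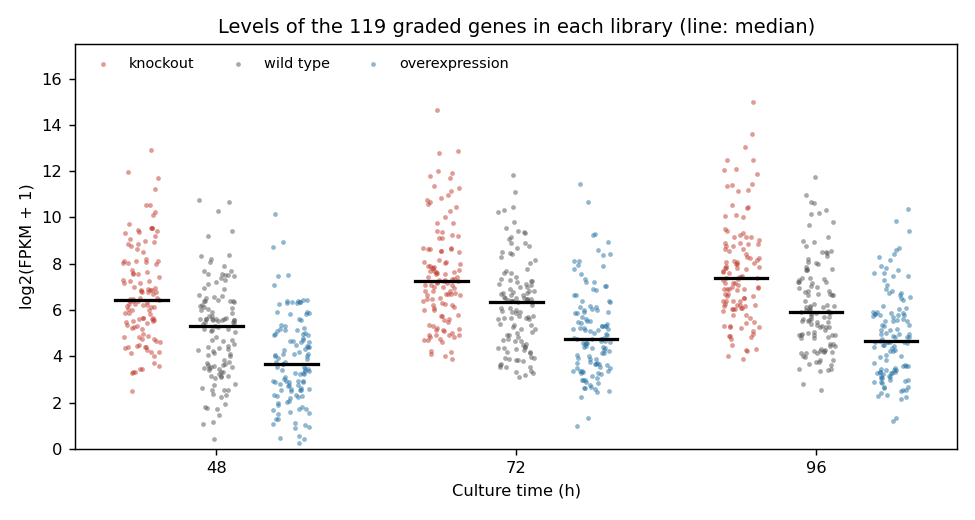
Each point is 1 of the 119 graded genes in 1 library, on a log2(FPKM + 1) axis, grouped by culture time in h and coloured by strain; the line is the median. Median FPKM steps down from knockout to wild type to overexpression at each time, from 84.7 to 39.2 to 11.8 at 48 h.

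The median member was at 84.7, 151 and 167 FPKM in knockout mycelium at 48, 72 and 96 h. In wild type the median was 39.2, 79.4 and 58.6 FPKM, and in overexpression 11.8, 26.0 and 24.5 FPKM. As the plot of levels by library shows, the ranges of the strains overlap widely across genes, so the grading is a property of each gene and not of a common level. In RNA from whole mycelium, fewer cells that express a gene and less RNA per cell cannot be told apart. Mean levels over the libraries ran from 10.6 to 8651 FPKM with a median of 78.6, against a median of 53.4 over all genes of mean 10 or more. These means include the knockout values, in which members were chosen to be high, so the comparison partly restates the choice. Over the 77 genes graded the opposite way, with knockout below wild type below overexpression, the median was 79.2 FPKM.

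The 119 genes together took 4.03%, 9.03% and 11% of summed FPKM in knockout mycelium at 48, 72 and 96 h. They took 1.19%, 2.34% and 2.56% in wild type and 0.434%, 1.33% and 1.10% in overexpression. Without the pair of most abundant members the shares were 2.88% to 6.69% in the knockout, 1.16% to 2.12% in wild type and 0.415% to 0.966% in overexpression. The rule asked for this order in every member, so the order of the shares largely follows from the choice, with or without these 2 genes.

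**Figure D2:**
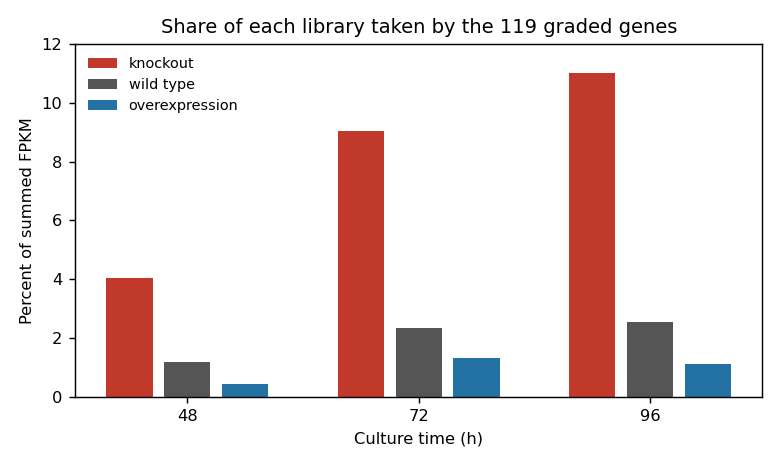
Bars give the percent of summed FPKM in each library that came from the 119 graded genes, by culture time in h and strain; there is 1 library per bar and no error. The knockout bar reaches 11% at 96 h, where wild type is at 2.56% and overexpression at 1.10%.

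The distance from wild type was about as large on the knockout side as on the overexpression side. The median difference was 1.12 for knockout minus wild type and -1.07 for overexpression minus wild type, on the mean log2 scale. For 61 genes the knockout difference was the larger in size, and for 58 the overexpression difference. Both differences were at least 1 in size for 45 genes, and the sizes differed by no more than 0.25 for 37. Across all 3 times, the lowest knockout value lay above the highest wild-type value for 63 genes, and the lowest wild-type value above the highest overexpression value for 43. Both held for 33. For 108 genes the lowest knockout value exceeded the highest overexpression value, and in the other 11 these ranges met. Over all genes of mean 10 or more these separations were found in 9.52%, 8.48%, 0.747% and 11.5%, in the same order. The rule asked for the strain order, so nothing is read from the higher shares among the members.

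**Figure D3:**
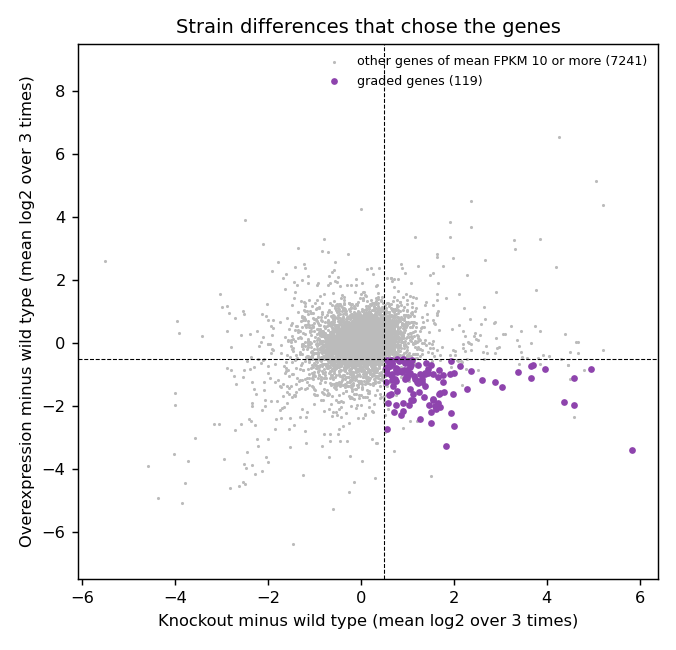
Each point is a gene of mean FPKM 10 or more; the x axis is knockout minus wild type and the y axis overexpression minus wild type, both as mean log2(FPKM + 1) over 3 times. The 119 graded genes lie right of and below the dashed lines at 0.5 and -0.5, and grey points there did not keep the strain order at every time.

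The grading was narrow in some genes. At 1 or more of the 3 times, 16 genes had a step of under 0.1 on the log2 scale between neighbouring strains, so their order there rests on a small difference between single libraries. Every step was at least 0.5 for 42 genes and at least 1 for 10. At the threshold, KFH44437.1 stood at 543, 679 and 478 FPKM in knockout mycelium, 203, 351 and 369 in wild type and 178, 238 and 209 in overexpression, with an overexpression difference of -0.52. KFH41971.1 stood at 81.8, 133 and 134 FPKM in knockout mycelium, 47.2, 106 and 56.8 in wild type and 33.6, 50.3 and 55.2 in overexpression, with a difference of -0.53. KFH46505.1 had the smallest knockout difference of all members, 0.53. All 3 passed narrowly on 1 of the differences.

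Just outside lay KFH43171.1, with a knockout difference of 0.69 and an overexpression difference of -0.50 (-0.4954). KFH44222.1 had differences of 0.49 and -0.52, and KFH45494.1 of 1.17 and -0.49. The last stood at 2678, 3071 and 3612 FPKM in knockout mycelium, 1316, 1537 and 1279 in wild type and 1054, 1235 and 711 in overexpression. It kept the strain order at each time, so the boundary of the set separates genes of similar pattern.

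Among the 8 genes with the widest span between knockout and overexpression, KFH44385.1 came first. It stood at 742, 2287 and 2335 FPKM in knockout mycelium, 4.10, 89.6 and 45.3 in wild type and 2.89, 0.971 and 1.27 in overexpression. At 48 h wild type and overexpression were close, at a ratio of 1.42, while at 72 and 96 h they were 92.3-fold and 35.7-fold apart. The overexpression values at 72 and 96 h are near 1 FPKM, where depth limits values most, so the size of these ratios is uncertain. Knockout and overexpression values never met, and the overexpression series was the only one of its 3 that was lower at 72 and 96 h than at 48 h.

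KFH45046.1 stood at 495, 1403 and 1052 FPKM in knockout mycelium, 10.9, 52.8 and 83.9 in wild type and 3.11, 19.7 and 9.53 in overexpression. The knockout exceeded wild type 45.5-fold, 26.6-fold and 12.5-fold at 48, 72 and 96 h. The ratio of wild type to overexpression was 3.5, 2.68 and 8.80. Every knockout value of this gene lay above every wild-type value, whereas overexpression at 72 h was above wild type at 48 h.

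KFH41531.1, KFH48504.1 and KFH44057.1 had one shape in common. KFH41531.1 stood at 751, 2504 and 4183 FPKM in knockout mycelium, 4.90, 414 and 362 in wild type and 1.44, 130 and 54.7 in overexpression. KFH48504.1 stood at 646, 1646 and 2786 FPKM in knockout mycelium, 4.83, 111 and 155 in wild type and 2.71, 99 and 46.7 in overexpression. KFH44057.1 stood at 4048, 7472 and 12627 FPKM, 48.6, 687 and 825 FPKM, and 23.9, 627 and 174 FPKM in the same order of strains. In all 3 the knockout at 48 h was already above every wild-type library, and overexpression was highest at 72 h. Both traits were also found in KFH45046.1 and KFH42650.1. For KFH48504.1 and KFH44057.1 wild type and overexpression were close at 72 h, at ratios of 1.12 and 1.09, and further apart at 96 h, at 3.31 and 4.73.

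KFH42650.1 stood at 1485, 4132 and 5649 FPKM in knockout mycelium, 63.0, 481 and 295 in wild type and 26.4, 388 and 155 in overexpression, again with the knockout at 48 h above all of wild type. KFH45088.1 was the least abundant of the 8, at 45.0, 83.3 and 67.1 FPKM in knockout mycelium, 1.23, 9.15 and 4.80 in wild type and 1.03, 1.53 and 1.53 in overexpression. Its wild-type and overexpression values at 48 h are near 1 FPKM, where the pseudocount of 1 pulls differences towards 0.

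**Figure D4:**
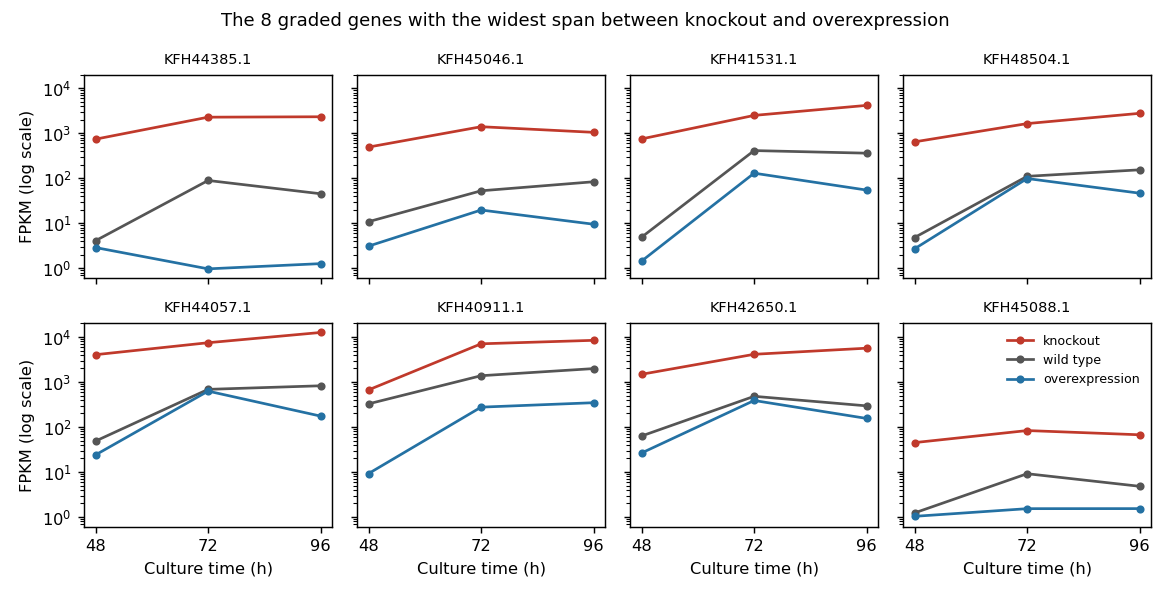
Lines join the 3 libraries of a strain over culture time in h for the 8 graded genes with the widest span; the FPKM axis is logarithmic and each point is 1 library. In all panels except that of KFH40911.1 the knockout lies above every wild-type library from 48 h on, and in KFH48504.1 and KFH44057.1 wild type and overexpression nearly meet at 72 h.

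KFH40911.1, also among the 8, departed from this shape on the overexpression side. It stood at 668, 7068 and 8446 FPKM in knockout mycelium, 327, 1381 and 1988 in wild type and 9.22, 276 and 347 in overexpression. KFH42463.1 stood at 365, 3874 and 5647 FPKM in knockout mycelium, 175, 1268 and 1575 in wild type and 15.9, 274 and 386 in overexpression. For both, overexpression at 96 h was above wild type at 48 h, at 347 against 327 FPKM for KFH40911.1 and 386 against 175 FPKM for KFH42463.1. The same held for KFH41531.1, KFH48504.1, KFH44057.1 and KFH42650.1. For KFH40911.1 and KFH42463.1 the gap between wild type and overexpression was largest at 48 h, at ratios of 35.4 and 11. Their knockout level exceeded wild type 2.04-fold and 2.09-fold at that time.

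The most abundant member was KFH43806.1, at 7683, 25697 and 32888 FPKM in knockout mycelium, 237, 3642 and 3439 in wild type and 181, 2752 and 1337 in overexpression. At 96 h it alone made up 3.08% of summed FPKM in knockout mycelium, 0.353% in wild type and 0.157% in overexpression. KFH40667.1, also abundant, was at 3327, 3377 and 4401 FPKM in knockout mycelium, 1637, 2193 and 1622 in wild type and 1133, 1622 and 932 in overexpression. Its steps were from 1.54-fold to 2.71-fold between knockout and wild type and from 1.35-fold to 1.74-fold between wild type and overexpression. It changed little over time, with a fitted log2 change from 48 to 96 h of 0.04 (SE 0.31, limma adjusted p = 0.950).

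The genes differed in which mutant stood further from wild type. KFH48504.1 and KFH44057.1 lay most to the knockout side, with knockout differences of 4.95 and 4.58 and overexpression differences of -0.84 and -1.12. At the other end, KFH40949.1 stood at 697, 1704 and 2720 FPKM in knockout mycelium, 674, 1214 and 1263 in wild type and 82.2, 218 and 190 in overexpression. KFH44636.1 stood at 590, 409 and 455 FPKM in knockout mycelium, 323, 365 and 216 in wild type and 55.0, 81.7 and 57.8 in overexpression. In both of these the wild-type and overexpression ranges lay apart, while the knockout at 48 h (KFH40949.1) or at 72 h (KFH44636.1) was within 1.12-fold of wild type.

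The change over culture time did not itself enter the selection, since the strains were compared within each time and averaged over them. It was tested with limma on log2(FPKM + 1) over the 9 libraries, with strain and time as factors, and p-values were adjusted by Benjamini-Hochberg over 8482 genes. The residual is the departure from additive strain and time effects, since no library is repeated. The rule asked for the strain order at every time, which limits that departure in members. The shares called are therefore no independent comparison. From 48 to 96 h, 51 of the 119 genes rose (42.9%) and 7 fell (5.88%). Over all tested genes 508 rose (5.99%) and 525 fell (6.19%), and over tested genes of mean 10 or more 6.32% rose and 6.94% fell. The share of graded genes called rising lay well above the background, and the share called falling lay near it. How far the limit on the residual adds to the calls was not tested. The members share the same 9 libraries and were not tested as a group.

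With libraries rescaled to equal totals, the split over all genes was 498 rising and 260 falling, and with median-of-ratios rescaling 596 and 405. The members then split 50 to 4 and 53 to 7. Equal totals moved the median time change over genes of mean 10 or more from -0.07 to 0.07, and that of the members from 0.94 to 1.07.

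The count of rising members was 15 without the knockout at 96 h, 18 without overexpression at 96 h and 25 without wild type at 96 h. It was 27 and 31 without wild type and overexpression at 48 h. The shares over genes of mean 10 or more were, in the same fits and order, 0.952%, 0.721%, 2.15%, 2.11% and 2.73%. Of the 51, 11 stayed called in each of the 9 fits that omit 1 library, a count not taken over all genes. The count of falling members was 1 without the knockout or overexpression at 96 h, 3 without overexpression at 48 h or wild type at 48 or 96 h, and 4 without the knockout at 48 h, overexpression at 72 h or wild type at 72 h. In these 8 fits the falling members were 0.84% to 3.36% of the 119, and 0.517% to 5.47% of genes of mean 10 or more fell.

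By direction alone, 72 of the 119 genes (60.5%) were higher at 96 h than at 48 h in all 3 strains, against 22.2% of all genes of mean 10 or more. By contrast, 13 (10.9%) were lower in all 3, against 29.7%. The median fitted change was 0.94 on the log2 scale in the members and -0.07 over all genes of mean 10 or more. In the 77 genes graded the opposite way, with knockout below wild type below overexpression, the median was 0.30, and 15 rose (19.5%) and 7 fell (9.09%). Most of the change came early. The median log2 change from 48 to 72 h was 0.55 in the knockout, 0.82 in wild type and 1.09 in overexpression, and from 72 to 96 h it was 0.14, 0.00 (0.000705) and -0.06.

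**Figure D5:**
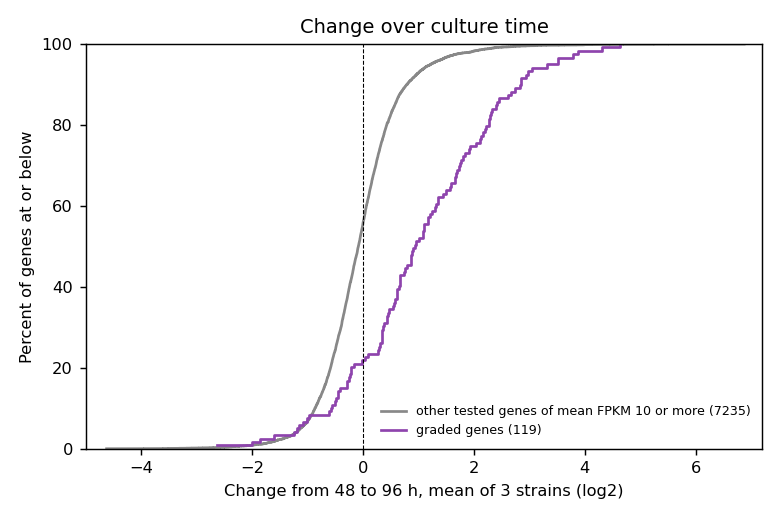
Cumulative percent of genes against the fitted log2 change from 48 to 96 h averaged over 3 strains, for the 119 graded genes and for the other tested genes of mean FPKM 10 or more. The curve of the graded genes is shifted to the right over most of its length, with a median of 0.94. It meets the other curve among falling genes, and at the upper end it stops at 4.63, while other genes reach 6.89.

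For the 51 rising genes the median was 73.4, 256 and 310 FPKM in knockout mycelium, 15.2, 111 and 110 in wild-type mycelium and 6.42, 36.6 and 38.3 under overexpression. Their median log2 change from 48 to 96 h was 2.15 for the knockout, 2.21 for wild type and 2.02 under overexpression. Of the 119 members, 55 rose by at least 1 in the knockout, 56 in wild type and 63 in overexpression. Of the 7360 genes of mean 10 or more, 513, 780 and 990 did, in the same order. In 39 members such a rise was seen in all 3 strains, a count not taken over all genes. The rising calls come from a fit without strain-specific time effects, which favours genes that rise alike in the strains, and single genes differed. KFH42558.1 changed by 5.70 in the knockout, 3.40 in wild type and 1.46 in overexpression.

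KFH41656.1 had the largest rise. It went from 90.6 through 599 to 1405 FPKM in knockout mycelium, from 2.55 through 152 to 253 in wild type and from 2.34 through 47.8 to 45.1 in overexpression, a log2 change of 4.63 (SE 0.52, limma adjusted p = 0.0077). At 48 h wild type and overexpression were nearly equal. KFH41531.1 rose by 4.31 (SE 0.79, limma adjusted p = 0.0232), KFH42463.1 by 3.88 (SE 0.29, limma adjusted p = 0.00363) and KFH40911.1 by 3.78 (SE 0.49, limma adjusted p = 0.0117). No single left-out library ended the calls of KFH41656.1 and KFH42463.1, and KFH40911.1 missed the threshold only without overexpression at 96 h (adjusted p = 0.0509).

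Of the 8 genes of widest span, KFH45046.1, KFH41531.1, KFH48504.1, KFH44057.1, KFH40911.1 and KFH42650.1 were called rising, as was the abundant KFH43806.1 with a log2 change of 2.94 (SE 0.51, limma adjusted p = 0.0194). KFH44385.1 and KFH45088.1 had changes of 1.35 and 0.75 that did not pass (adjusted p = 0.30 and 0.190). Without wild type at 48 h these changes were 0.26 and 0.33, and without overexpression at 48 h that of KFH44385.1 was 2.53 (limma adjusted p = 0.0551). The calls of KFH45046.1, KFH41531.1, KFH48504.1, KFH44057.1, KFH42650.1 and KFH43806.1 ended without wild type or overexpression at 48 or 96 h and without the knockout at 96 h. Those of KFH45046.1 and KFH44057.1 also ended without wild type at 72 h, with adjusted p from 0.0514 to 0.128 in these fits.

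The 7 falling genes were KFH46123.1, KFH40562.1, KFH48988.1, KFH41893.1, KFH48548.1, KFH40632.1 and KFH42759.1. KFH46123.1 went from 685 through 145 to 127 FPKM in knockout mycelium, from 188 through 83.3 to 30.5 in wild type and from 80.9 through 12 to 10.04 in overexpression, and fell by 2.63 on the log2 scale (SE 0.30, limma adjusted p = 0.00812). Its call was the one falling call that held in each of these 9 fits. KFH40562.1 went from 279 through 156 to 83.2 FPKM in knockout mycelium, from 149 through 104 to 70.1 in wild type and from 83.7 through 24.5 to 8.41 in overexpression. It fell by 1.99 (SE 0.36, limma adjusted p = 0.0208), and its call ended without the knockout or overexpression at 96 h (adjusted p = 0.0714 and 0.0723).

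KFH48988.1 stood at 462, 102 and 169 FPKM in knockout mycelium, 203, 48.8 and 34.5 in wild type and 23.9, 16.6 and 7.33 in overexpression. It fell by 1.85 (SE 0.38, limma adjusted p = 0.0294), and its call ended without the knockout at 48 or 96 h, overexpression at 96 h or any wild-type library (adjusted p from 0.0539 to 0.120). KFH41893.1 fell by 1.60 (SE 0.38, limma adjusted p = 0.0408), and its call ended without any overexpression or wild-type library or the knockout at 96 h (0.0609 to 0.142) and with equal totals (0.0529).

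Whether the time course of a gene depended on the strain was tested as a difference in slope per 24 h from wild type, in a limma fit with a slope for each strain. None of the 119 genes passed for the knockout (0%) or for overexpression (0%), and none of the 8482 tested genes did (0% for both). At an unadjusted p under 0.05 there were 6 members for the knockout (5.04%), against 5.55% of tested genes of mean 10 or more, and 5 for overexpression (4.20%), against 10.1%. The rule allowed no strain gap to change sign between times, which limits how far slopes of members can differ, so these shares are no independent comparison. The median slope difference of the members was -0.01 for the knockout and 0.00 (-0.00219) for overexpression. The fit leaves 3 residual degrees of freedom, so a slope difference must be large to pass, and a miss does not show that slopes were equal. For KFH44385.1 the slope in overexpression differed from that in wild type by -1.98 per 24 h (limma adjusted p = 0.554).

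To see the order at a time that played no part in the choice, genes were chosen anew by the same thresholds and order on 2 times, and the remaining time was read. Chosen on 72 and 96 h, 188 genes were found, and 115 of them (61.2%) had knockout above wild type above overexpression at 48 h. Chosen on 48 and 96 h, 123 of 172 (71.5%) had that order at 72 h, and chosen on 48 and 72 h, 99 of 127 (78.0%) had it at 96 h. Over all genes of mean 10 or more the order was found in 18.9%, 18.8% and 20.8% at 48, 72 and 96 h. At 48 h, 87.2% of the chosen genes had knockout above wild type, against 57.2% of all genes, and 70.2% had wild type above overexpression, against 41.7%. The libraries of a strain may come from 1 culture, so this describes persistence over time within these strains and is no check in separate cultures.

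By identifier number, 22 of the 119 genes (18.5%) lay within 5 of another member. Of the 77 oppositely graded genes, 18 (23.4%) lay within 5 of another of that set. Such shares depend on the size of a set, and none was taken over other genes, so nothing is read from them. Nothing here ties these numbers to positions in the genome. The closest members formed 3 pairs at most 3 numbers apart. KFH47553.1 stood at 273, 1538 and 1499 FPKM in knockout mycelium, 138, 567 and 880 in wild type and 134, 333 and 309 in overexpression. Its neighbour KFH47554.1 stood at 50.02, 48.4 and 36.5 FPKM in knockout mycelium, 22.0, 16.9 and 29.1 in wild type and 14.3, 14 and 7.88 in overexpression. The first rose with time by 2.11 (SE 0.31, limma adjusted p = 0.0141, and 0.0572 without the knockout at 96 h), and the second had a change of -0.28 that did not pass (adjusted p = 0.545); the difference between them was not tested.

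KFH46022.1 stood at 27.4, 63.8 and 64.0 FPKM in knockout mycelium, 7.31, 48.9 and 31.4 in wild type and 4.87, 11.5 and 23.3 in overexpression. KFH46025.1 stood at 28.1, 548 and 253 FPKM in knockout mycelium, 18.9, 192 and 161 in wild type and 5.67, 38.3 and 44.4 in overexpression. Both were lowest at 48 h in each strain. In the pair KFH42558.1 and KFH42560.1, the first stood at 10.1, 241 and 576 FPKM in knockout mycelium, 3.68, 28.8 and 48.6 in wild type and 1.8, 25.7 and 6.73 in overexpression. KFH42560.1 stood at 40.3, 35.7 and 64.4 FPKM in knockout mycelium, 12.2, 22.3 and 14.5 in wild type and 0.880, 5.75 and 5.09 in overexpression, with its lowest step to wild type, 1.60-fold, at 72 h.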

How the data were processed

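The deposited table holds 1 value per gene and library. Its header names no unit, and the values were treated as FPKM as computed by the authors, because they are not whole, sum to different totals and step at low levels by gene and library. CASAVA, with no version, and HISAT2 2.0.5 are named per the submitters' processing notes; how reads were counted, and on which build and annotation, is not stated. All 9 columns matched a library, with 0 unmatched. From these values, log2(FPKM + 1) was fitted with limma 3.58.1 in R 4.3.3 for genes that reached 1 FPKM in 3 or more libraries, with an intensity trend, two-sided tests and a threshold of 0.05 on the Benjamini-Hochberg adjusted p. Residual degrees of freedom were 4 for time and 3 for slopes. FPKM values are not counts, so no count test was run. Relative depth came from a grid likelihood over whole-read ratios at genes under 2 FPKM, tested with the other scripts on simulated data.

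The members and lists were chosen with earlier results of these data known. Named are the 8 members of widest span, the 6 most abundant, the 4 largest called changes in each direction over time, members in the closest identifier pairs, the 2 at each end of the balance between mutants, and 3 genes on each side of the threshold; the remaining 3 of the 7 falling genes are listed besides. No gene list could be matched by name. Nothing says that libraries come from separate cultures, and no library is repeated. The p-values therefore rest on the departure of these libraries from the fitted strain and time terms, not on a spread between cultures.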

Additional observations from a re-analysis of the deposited data

How the results depend on the processing

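The 119 genes became 188 at a threshold of 0.3, 45 at a threshold of 1 and 189 with no order asked for. Other means, pseudocount, scalings or 1 library left out gave 90 to 169, with 78 to 119 of the 119 among them. With time as a common linear slope 32 members rose (26.9%, against 4.6% of genes of mean 10 or more). With 1 library left out 15 to 45 members rose and 1 to 6 fell. With equal totals 4 fell (3.36%, against 3.47%). No member passed for a slope difference in any alternative. The order at a time left out of the choice was found in 71.2% at 48 h and 89.6% at 96 h with a threshold of 1, and in 72.6% and 68.9% with equal totals. Members near another identifier numbered 4 within 2 and 37 within 10. Over 27 named members, 405 recomputed time changes kept their direction wherever they were called, and 0 reversed. Only the 18 members called for time, each with 15 alternatives, could lose a call, and 77 of their recomputed changes did. The causes of these shifts were not tested. Fits with 1 library fewer have fewer residual degrees of freedom. No paired analysis was possible because the labels number no replicates; libraries of the 3 strains share a culture time, by which the fit is already blocked. Depth limits values near 1 FPKM most.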

Other observations

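The 11 members with a knockout difference of at least 3 on the mean log2 scale, a set drawn after the values were seen and given without a test, are described here by their course in overexpression. In 9 of the 11 the overexpression level was highest at 72 h and lower again at 96 h, with a median log2 difference of 1.04 between these times. Among the other 108 members it was highest at 72 h in 35, and the median difference was 0.01 (0.00891). Overexpression was highest at 72 h in 37% of all 119 members and in 20.6% of all genes of mean 10 or more. All 11 were lowest at 48 h in wild type, as were 75 of the other 108, a share not taken over all genes. The median wild-type change to 72 h was 3.79 on the log2 scale, against 0.74 (0.745) in the others. The knockout stood above wild type by a median of 5.01 at 48 h, 3.05 at 72 h and 3.63 at 96 h, and wild type above overexpression by 0.99, 0.51 and 1.71. Wild type at 48 h enters the knockout difference that chose the 11. Their low wild-type level at 48 h, its change to 72 h and the knockout gaps therefore partly restate that choice. KFH45041.1 and KFH45583.1 belong to this set beside genes already described. KFH45041.1 stood at 115, 401 and 633 FPKM in knockout mycelium, 9.10, 48.2 and 51.4 in wild type and 3.90, 36.7 and 20.2 in overexpression. KFH45583.1 stood at 45.5, 86.9 and 232 FPKM in knockout mycelium, 2.27, 20.0 and 5.99 in wild type and 0.399, 13.8 and 4.02 in overexpression. The overexpression library at 72 h was estimated to be among the deepest (2.39 relative to wild type at 96 h, against 2.23 for overexpression at 96 h), and its part in this pattern was not tested.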
